A study of Drosophila melanogaster with 42 samples.

Results

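Brahma (Brm) peaks that also touch a Kismet peak and a Trr peak were examined in intestinal stem cells (ISCs) of the adult Drosophila gut. A Brm peak was counted as shared when it had at least 1 bp in common with a Kismet peak and at least 1 bp in common with a Trr peak. This held for 1024 of the 1569 Brm peaks (65.3%, 95% Wilson interval 62.9 to 67.6), which took up 405361 bp, or 72.8% of the length in Brm peaks. The remaining 545 Brm peaks comprised 356 that touched Kismet only, 42 that touched Trr only and 147 that touched neither. Members were chosen by the positions of their own peaks and of the Kismet and Trr peaks, so the degree of sharing is a description of these lists and no test was applied to it.

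Most shared Brm peaks lay in RNA Pol II peaks: 827 of 1024 (80.8%, 78.2 to 83.1) touched one, against 150 of the 545 remaining Brm peaks (27.5%, 23.9 to 31.4). They were somewhat longer than the remaining peaks, with a median of 272 bp against 241 bp, and overlapped Polycomb (Pc) peaks less often, at 41 of 1024 (4%, 2.97 to 5.39) against 48 of 545 (8.81%, 6.71 to 11.5). The shared peaks touched 740 genes (4.18% of all genes), among them the EGFR pathway genes pnt and Egfr, the insulin receptor gene InR and foxo. Of these 740 genes, 719 (97.2%) carried an RNA Pol II peak, against 41.5% of all genes. Genes with Kismet and Trr peaks but no Brm peak did so in 95% of cases. Regions in both Kismet and Trr peaks also lay at RNA Pol II where they held no Brm peak, with 86.6% touching it with Brm and 88.2% without. Regions with Brm were longer. Among regions under 300 bp the values were 57.6% with Brm and 73.2% without, and at 1 kb or more they were 98.6% and 98.1%.

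Brm is the ATPase of the Drosophila SWI/SNF chromatin remodelers, the BAP and PBAP complexes, which slide and evict nucleosomes at promoters and enhancers. Kismet is the fly relative of the remodelers CHD7 and CHD8 and belongs to the trithorax group, which opposes Polycomb silencing. Trr is the relative of the mammalian methyltransferases MLL3 and MLL4, the catalytic subunit of a COMPASS-like complex that places monomethylation on lysine 4 of histone H3, a mark of enhancers. ISCs divide throughout adult life to renew the gut epithelium, and their daughters become enterocytes or enteroendocrine cells.

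Binding was mapped by targeted DamID, in which a protein fused to the bacterial Dam methylase marks GATC sites near the places it visits. Flies were esg-gal4ts NREGal80>UAS-DamBrm, >UAS-DamKis or >UAS-DamTrr for the 3 lists that define the members, DamPolII for RNA Pol II, and DamPc, DamHP1 or DamH1 for 3 proteins of silent chromatin, with UAS-Dam alone as the control. In all of them the esg driver was active in progenitors while a Notch-responsive Gal80 held it back in enteroblasts, and the heat-sensitive system kept it off at 18°C until adults 3 days old were moved to 29°C for 1 day. Each sample was a pool of 60 guts. Every fusion had 3 samples, and 11 samples expressed Dam alone. Some HP1 and H1 samples carry other fusion numbers in their genotype entries than in their titles, and the titles were followed.

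All 3 samples of a fusion entered a single peak call against 3 Dam-only samples, and the lists give only the position of each peak. No count or score stands beside a peak, so depth is unknown, samples cannot be compared with each other, and the Wilson intervals cover counting error over peaks or genes only. Neighbouring peaks are not independent, which makes the intervals too narrow by an unknown amount. The Brm, Kismet and Trr lists share no Dam-only sample with each other. RNA Pol II shares its Dam-only samples with Kismet, and HP1 and H1 share theirs with Brm. Pc shares part of its Dam-only samples with Brm. RNA Pol II peaks lay on all 6 ISC and progenitor markers checked, including esg (100% of the gene body) and Delta (79.6%). They also lay on 5 of 11 enterocyte genes (nub, Myo31DF, mex1, GATAe and lab), 4 of 14 enteroendocrine genes (pros, NPF, ITP and sc) and 3 of 8 visceral muscle genes (how, Mef2 and Zasp52), against 41.5% of all genes.

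On the 5 large arms, the percent of Brm peaks that were shared was lowest on 2L (57.7%) and highest on 3L (70.2%). Chromosome 4 held a single Brm peak, which was not shared. Shared Brm peaks mostly lay inside their partners, with 975 wholly inside a Kismet peak and 867 wholly inside a Trr peak. Kismet peaks covered 95.3% of their base pairs and Trr peaks covered 86.5%.

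The fit to Trr peaks was the closer one. A shared Brm peak started or ended at the same GATC site as a Trr peak in 590 cases (57.6%), as an RNA Pol II peak in 251 cases (24.5%) and as a Kismet peak in 167 cases (16.3%). For 168 members a single Trr peak had both the same start and the same end, against 22 for RNA Pol II and 15 for Kismet. The lists differ in the lengths of their peaks, with a median of 259 bp for all Brm peaks, 655.5 bp for Trr, 1234 bp for RNA Pol II and 1783 bp for Kismet.

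Shared Brm peaks occupied a minority of the sites of their partners. Of 4563 Kismet peaks, 777 (17%) held at least 1 shared Brm peak, and these were long, with a median of 5772 bp against 1440.5 bp for the other Kismet peaks. Of 4840 Trr peaks, 963 (19.9%) held at least 1, with a median of 1149 bp against 599 bp. The Kismet peak with the most members was a 28618 bp block at chrX:13624431-13653048 (release 6 of the Drosophila melanogaster genome, as for all positions here) over NFAT, a transcription factor gene of the Rel family, with 7 shared Brm peaks.

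At the border of the definition, 81 members (7.91%) met it with an overlap of exactly 4 bp, the length of the GATC site that abutting peaks have in common. Of these, 61 had 4 bp with Trr and 24 had 4 bp with Kismet. A further 16 had a smaller overlap of more than 4 and less than 50 bp, and the median of the smaller overlap over all members was 252.5 bp. Just outside the definition, 53 remaining Brm peaks (9.72%) lay within 200 bp of both a Kismet and a Trr peak, the closest at a distance of 3 bp. The median distance from a remaining peak to the farther of the 2 partners was 2519 bp.

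Around the centres of shared Brm peaks, Trr coverage was narrow and Kismet coverage broad. Trr peaks covered the centre of 89.8% of the members but only 41.6% and 40% of positions 1 kb to either side. Kismet peaks covered 96.7% of centres and 80.1% and 80.3% of positions at 1 kb. RNA Pol II covered 68.5% of shared centres, 59% and 59.2% of positions at 1 kb, and 33.9% and 34.3% at 5 kb. The remaining Brm peaks had the opposite shape for RNA Pol II, with 17.8% of centres covered against 29.5% and 29% of positions at 1 kb. Their Trr coverage dipped as well, with 6.79% of centres against 12.3% and 10.1% at 1 kb. Remaining peaks were chosen for lacking Kismet or Trr, and RNA Pol II covered 84.4% of the bases in both. The RNA Pol II shapes are therefore not independent of how the groups were chosen.

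**Figure D1:**
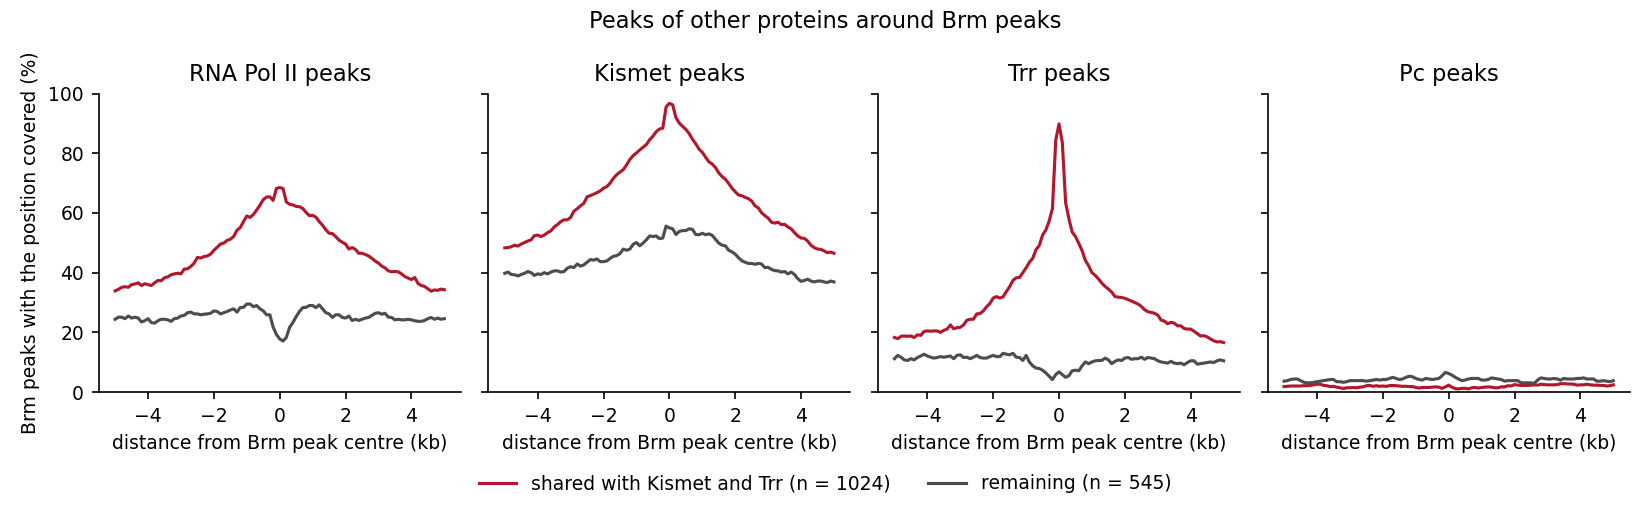
Percent of Brm peaks (vertical axis) with a position covered by an RNA Pol II, Kismet, Trr or Pc peak, against the distance of that position from the centre of the Brm peak in kb (horizontal axis), for shared Brm peaks in red and remaining Brm peaks in grey. RNA Pol II covers 68.5% of shared and 17.8% of remaining centres. The Kismet and Trr curves differ by construction, because these proteins chose the members, and the RNA Pol II curves are not independent of that choice.

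Shared Brm peaks had lengths between 8 and 10208 bp, with quartiles of 213 and 411.2 bp around the median of 272 bp. The remaining Brm peaks ran between 8 and 2190 bp, with quartiles of 191 and 295 bp around 241 bp. The range of the remaining peaks lay inside that of the shared peaks, and the upper quartiles differed more than the medians. Peaks of 1 kb or more made up 53 shared peaks (5.18%) and 8 remaining peaks (1.47%), while peaks under 100 bp made up 36 shared peaks (3.52%) and 50 remaining peaks (9.17%). A longer Brm peak has more bases with which to touch a partner, and the percent of Brm peaks that were shared was 55.7%, 62.5%, 65.2% and 77.8% over 4 length classes of about equal number, from the shortest to the longest, so length is not independent of the way members were chosen. Within the remaining peaks the median was 246.5 bp with Kismet only, 249 bp with Trr only and 217 bp with neither.

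**Figure D2:**
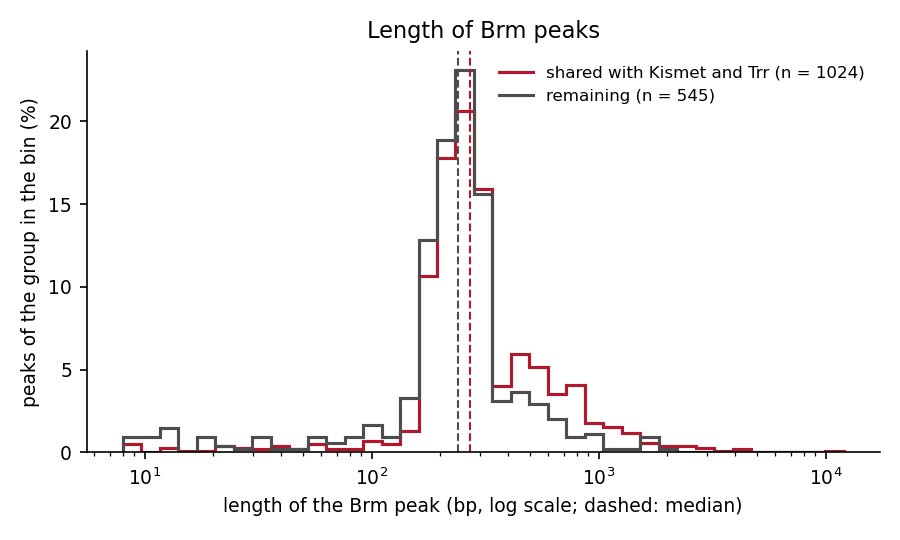
Distribution of Brm peak lengths in bp (horizontal, log scale) as the percent of peaks in each bin (vertical), for shared peaks in red and remaining peaks in grey, with dashed lines at the medians of 272 and 241 bp. Both groups peak at the same lengths, with more shared peaks above 1 kb (5.18% against 1.47%) and fewer under 100 bp (3.52% against 9.17%).

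The longest members differed in how far the other proteins filled them. The longest, at chr2R:14888993-14899200 (10208 bp), lay wholly in a single Kismet peak of 11550 bp and a single Trr peak of 10947 bp, yet only 823 bp of it were in RNA Pol II. It touched the bodies of Cyp6a8 and Cyp317a1, both cytochrome P450 genes. The next, at chrX:12724191-12728484 (4294 bp) in Smr, which encodes a nuclear receptor corepressor, was wholly in Kismet but had 857 bp in Trr, 194 bp in RNA Pol II and 853 bp in HP1. The other 3 were a 3959 bp peak over lncRNA:CR42651, a 3753 bp peak in rdx, a substrate adaptor of a Cullin ubiquitin ligase, and a 2940 bp peak over lncRNA:CR44380 and CG5550 that coincided with a Trr peak of 2940 bp. RNA Pol II covered 951, 1515 and 2134 bp of these 3 peaks. Among the 5 longest remaining Brm peaks, RNA Pol II covered 302 bp of the 2190 bp peak at CG6287 and no base of the other 4, which include a 1738 bp peak in AdamTS-A, a 1681 bp peak in sog and a 1672 bp peak in hppy.

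RNA Pol II peaks covered 66.1% of the base pairs of shared Brm peaks and 17.7% of those of the remaining Brm peaks, on arms of which they cover 9.93%. A total of 661 shared peaks (64.6%) were wholly inside an RNA Pol II peak, against 91 remaining peaks (16.7%). The difference was present on every large arm. Shared peaks touched RNA Pol II in 78.4% of cases on X, the lowest arm, and in 82.7% on 2R, the highest, while the remaining peaks did so in 22.6% on 3L and 37.5% on 2R at their extremes. In base pairs, shared exceeded remaining peaks by 31.5 percentage points on 2R and by 59.3 percentage points on 3L, with the other 3 arms between.

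The difference was present among short and long peaks. Over the same 4 length classes, from the shortest to the longest, RNA Pol II covered 66.5%, 70.6%, 73.1% and 62.8% of the base pairs of shared peaks, against 17.8%, 18.2%, 18.4% and 16.9% of those of remaining peaks. The lower value of the longest shared peaks includes the 10208 bp peak on 2R, without which RNA Pol II covered 67.6% of all shared base pairs.

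Among the remaining peaks, contact with RNA Pol II differed by partner. It was 34.6% (29.8 to 39.6) with Kismet only, 38.1% (25 to 53.2, 16 of 42 peaks) with Trr only and 7.48% (4.23 to 12.9) with neither. The intervals of Kismet only and Trr only overlap, and the interval of the shared peaks lies above both. Since Kismet and RNA Pol II share Dam-only samples, a feature of these controls that raises both lists cannot be told apart from binding. The Trr list shares no Dam-only sample with RNA Pol II.

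**Figure D3:**
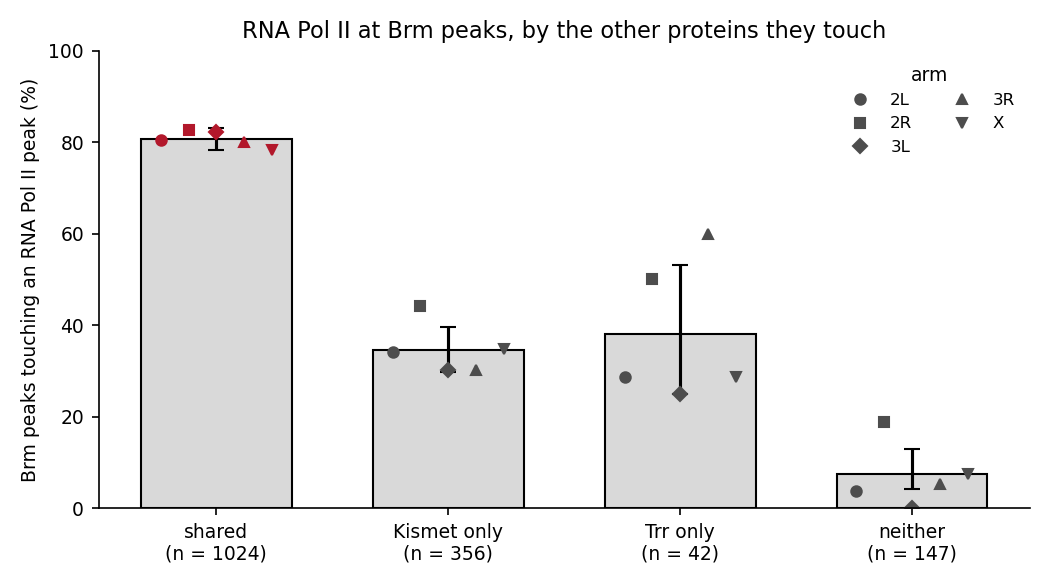
Percent of Brm peaks touching an RNA Pol II peak (vertical axis) for shared Brm peaks and for remaining peaks that touch Kismet only, Trr only or neither (horizontal axis). Bars give the value over all arms, error bars 95% Wilson intervals over peaks, and symbols single chromosome arms, with shared peaks at 78.4% to 82.7% on every large arm, above every arm of the other classes.

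In both groups, contact with RNA Pol II was lowest in the shortest Kismet peaks. The part of Kismet peak size in the difference between the groups was not tested. Shared Brm peaks in Kismet peaks under 2 kb touched RNA Pol II in 68.3% of cases (60.3 to 75.3), against 18.5% (12.3 to 26.9) of Kismet-only Brm peaks. In Kismet peaks of 2 to 10 kb the values were 82.8% (79.3 to 85.9) and 39.4% (32.1 to 47.1). At 10 kb or more they were 82.8% (78.6 to 86.3) and 45.5% (35.5 to 55.8).

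Kismet and Trr regions without Brm lay at RNA Pol II too. The bases in both a Kismet and a Trr peak formed 3985 regions, of which 963 (24.2%) held Brm and 3022 did not. Those with Brm were longer, with a median of 1082 bp against 661.5 bp, and RNA Pol II covered 82.8% of their base pairs against 85.1% without Brm. Among regions under 300 bp, 57.6% (50.8 to 64.2, n = 203) with Brm touched RNA Pol II, against 73.2% (70 to 76.1, n = 802) without. Among those of 1 kb or more the values were 98.6% with Brm and 98.1% without, and their intervals overlap. Of the bases in all 3 lists, 71.7% were in RNA Pol II, against 85.3% of Kismet and Trr bases outside Brm peaks.

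The 197 members (19.2%) that touched no RNA Pol II peak still lay close to one, at a median distance of 688 bp. Of these, 154 were in a gene and 139 in a gene that carried an RNA Pol II peak elsewhere. Their median length was 252 bp, against 269 bp for the 661 members wholly inside RNA Pol II. Pc peaks touched 18 of the 197 (9.14%) and 11 of the 661 (1.66%).

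Silent chromatin was rare at shared Brm peaks. Pc, the chromodomain subunit of Polycomb repressive complex 1, covered 2.31% of shared and 7.09% of remaining base pairs, against 3.92% of the arms. Among the remaining peaks, Pc touched 9.27% (6.68 to 12.7) with Kismet only and 9.52% (5.76 to 15.4) with neither. With Trr only it touched 1 of 42 (2.38%, 0.422 to 12.3), so a low value was not particular to shared peaks. Peaks of HP1, a protein of heterochromatin, touched 13 shared peaks (1.27%) and 7 remaining peaks (1.28%). HP1 covered 0.598% of shared and 1.34% of remaining base pairs, against 10.3% of the arms. Taken by combination, 796 members (77.7%) touched RNA Pol II without Pc or HP1, 179 (17.5%) touched none of the 3, 18 touched RNA Pol II and Pc, and 18 touched Pc alone. The other 13 touched RNA Pol II and HP1, 5 of them with Pc as well.

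For the linker histone H1 the groups differed in a few peaks. No shared Brm peak touched an H1 peak (0 of 1024, with a Wilson upper bound of 0.374% and a floor of 3 counts at 0.293%), against 9 remaining peaks (1.65%), all 9 in the class that touches neither Kismet nor Trr. Each of the 9 had exactly the start and end of an H1 peak, and Brm and H1 have their Dam-only samples in common. The part of those samples in the 9 matches was not tested.

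Shared Brm peaks were mostly inside genes. Gene bodies took 81.7% of their base pairs and 79% of those of the remaining peaks, against 69.5% of the arms, and 885 shared peaks (86.4%, 84.2 to 88.4) touched a gene, as did 446 remaining peaks (81.8%, 78.4 to 84.8). Members inside genes touched RNA Pol II in 82.6% of cases and the 139 between genes in 69.1%. For remaining peaks these values were 29.8% inside and 17.2% between genes.

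Gene ends were near a minority of both groups, with overlapping intervals. Of shared peaks 22.8% (20.3 to 25.4) lay within 500 bp of a gene's start or end, against 27.3% (23.8 to 31.2) of remaining peaks and 17.9% of the arms. The Trr-only class stood out, with 25 of 42 peaks (59.5%, 44.5 to 73). The gene table gives no strand, so starts and ends could not be separated.

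Neighbouring shared peaks lay closer to each other than neighbouring remaining peaks did, but a group with more peaks has shorter gaps by number alone. The gaps were not corrected for this. The gap between neighbouring shared peaks had a median of 41605 bp, against 103398 bp for the less numerous remaining peaks, and 23.1% of shared gaps were under 5 kb, against 10.9%. Of the 740 genes with a shared peak, 561 held 1, 120 held 2 and 59 held 3 or more.

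Shared Brm peaks touched 740 of 17684 genes (4.18%), of which 139 also held a remaining Brm peak. Another 313 genes held remaining peaks only. RNA Pol II peaks lay on 97.2% (95.7 to 98.1) of genes with a shared peak, 70.3% (65 to 75.1) of genes with remaining peaks only and 41.5% of all genes. Genes with Kismet and Trr peaks but no Brm peak carried RNA Pol II in 95% of cases (1720 of 1810).

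Genes with a shared peak were long, with a median of 12386 bp against 8048 bp for genes with remaining peaks only and 1710 bp for all genes. A longer gene has more room for a peak of any kind. The percent of genes with a shared peak was 0.69%, 1.28%, 5.72%, 18.7% and 24% for genes under 1 kb, of 1 to 3 kb, 3 to 10 kb, 10 to 30 kb and 30 kb or more. RNA Pol II peaks lay on 92.1%, 87.1%, 98%, 98.8% and 100% of the genes with a shared peak in these bands, against 40%, 51.6%, 74.1%, 79.3% and 84.7% of genes with remaining peaks only. Pc peaks lay on 15% (12.6 to 17.8) of genes with a shared peak, 20.1% (16.1 to 24.9) of genes with remaining peaks only and 5.21% of all genes.

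The most members in a gene were 8, in CG1677 (chrX:7281089-7405797) and in lncRNA:CR44357 (chrX:7166451-7405797), which overlap and hold the same 8 peaks of 4400 bp in total. NFAT (chrX:13624745-13664568) held 7 members of 4282 bp, all in a single Kismet block. Of these 7, 5 lay wholly inside RNA Pol II, 1 of 1249 bp had only the 4 bp of a GATC site in it, and 1 of 290 bp had none. By length in shared peaks, rdx led with 4 members of 6895 bp, followed by Smr with 3 of 4558 bp and lncRNA:CR43963 with 2 of 4507 bp.

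The gene pnt (chr3R:23290231-23346167) encodes an ETS transcription factor that activates targets of EGFR signaling, and it held 7 members of 1771 bp. Along the 55937 bp gene, Pc peaks took 26602 bp and RNA Pol II took 18000 bp. Of its 7 members, 1 touched Pc, with all of its 160 bp, 4 lay wholly inside RNA Pol II and 2 met the definition with 4 bp of Trr. Pc was therefore on the gene but mostly not at its shared Brm peaks.

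Eip75B (chr3L:17950953-18064696) encodes the nuclear receptor E75, an early gene of the ecdysone response, and held 6 members of 1502 bp. Only 2 of the 6, of 248 and 288 bp, were inside RNA Pol II, and 2, of 273 and 288 bp, were shared through 4 bp of Trr.

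**Figure D4:**
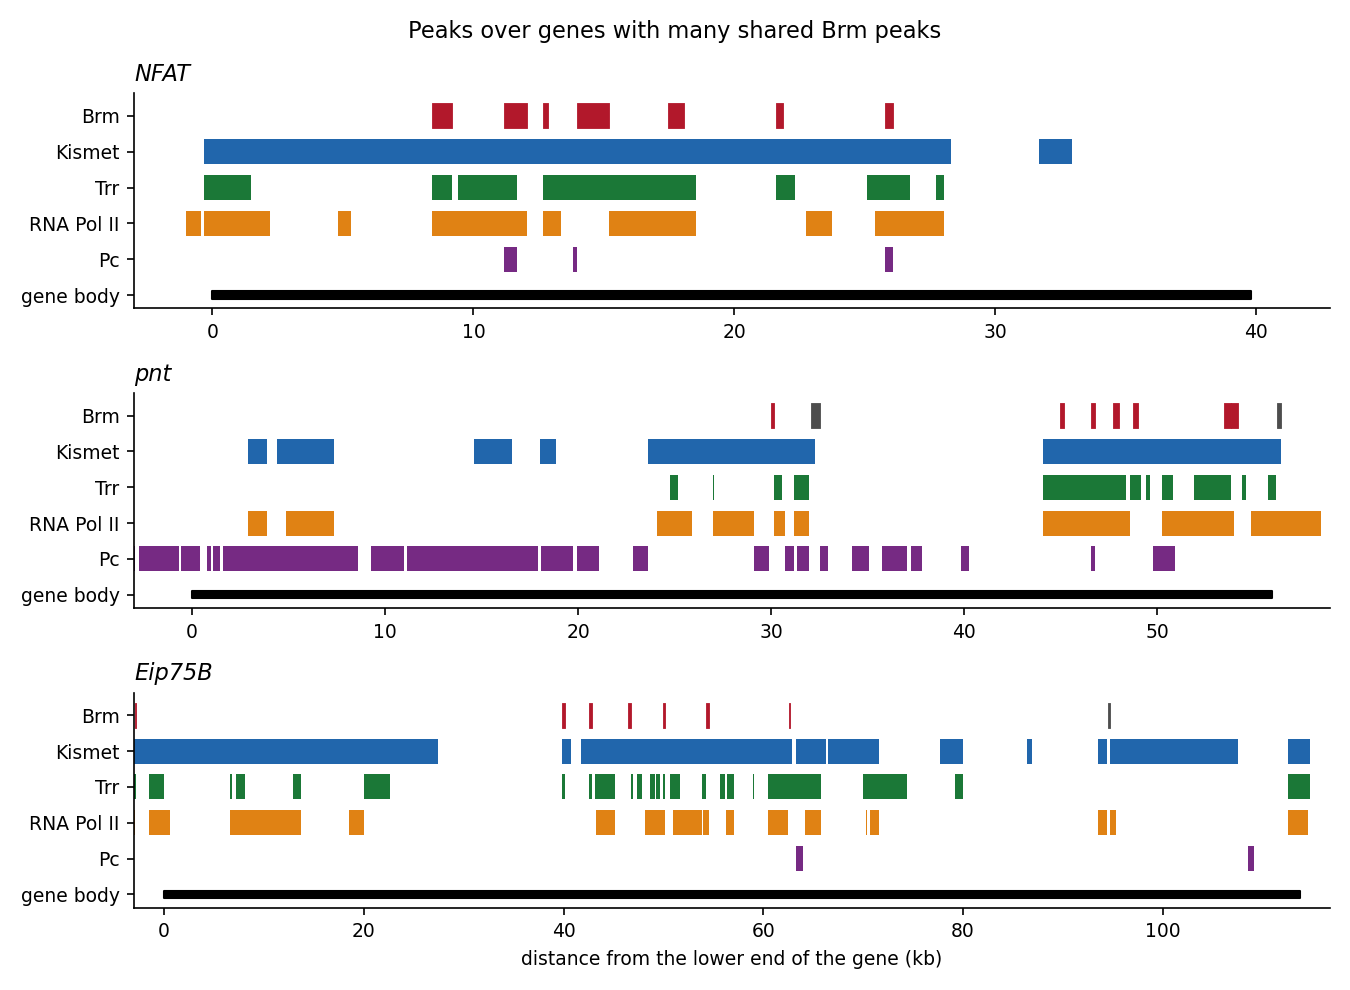
Peaks of Brm, Kismet, Trr, RNA Pol II and Pc over NFAT, pnt and Eip75B and 3 kb to either side, in kb from the end of the gene with the lower coordinate (horizontal axis), with shared Brm peaks in red and remaining Brm peaks in dark grey. All 7 shared Brm peaks of NFAT lie in a single Kismet block of 28618 bp, while the Pc peaks of pnt concentrate in the part of the gene with no Brm peak.

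Among 7 signaling pathways, 27 of 113 genes (23.9%) held a shared Brm peak, against 4.18% of all genes. Of their genes of 10 kb or more, 24 of 52 (46.2%) held one, against 20.5% of all genes of that length, and of the shorter ones 3 of 61 (4.92%) did, against 2.07%. The lists were chosen with earlier results of these data known, and the counts describe them without a test.

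EGFR signaling drives ISC division, and 7 of 25 genes of the pathway (28%) held a shared peak, against 4.18% of all genes. Of its 14 genes of 10 kb or more, 6 (42.9%) held one, against 20.5% of all genes of that length. The 7 genes act at several levels of the cascade. The receptor gene Egfr (chr2R:21522420-21559977) held 2 members, of 547 and 295 bp, both wholly in RNA Pol II, and 3 remaining Kismet-only Brm peaks, 2 of them wholly in RNA Pol II as well. The adaptor drk, the kinase Raf, the phosphatase Mkp3, which acts on ERK, and RasGAP1, which turns off Ras, held 1 each. The transcriptional repressor cic held 1 of 282 bp. The gene for the repressor aop held a remaining Brm peak only, and Cbl, whose product removes the receptor from the membrane, held no Brm peak but had 703 bp of Kismet, 1083 bp of Trr and 4235 bp of RNA Pol II.

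In Wingless signaling 5 of 16 genes (31.2%) held a shared peak, against 4.18% of all genes. These were the receptors fz2 and fz3, the co-receptor arr, the kinase sgg and the antagonist nkd, while the receptor fz held none. The BMP pathway had 4 of 12 genes, the type I receptors tkv and sax, the transcription factor shn and the inhibitory Smad Dad, with 933 bp in 2 members in Dad, while the receptors put, babo and wit held none. In the Notch pathway 3 of 21 genes held one, the receptor N, the co-activator mam and the ubiquitin ligase neur, while the ligand gene Delta held none. At 10 kb or more, 5 of 9 Wingless, 3 of 6 BMP and 3 of 9 Notch genes held one, against 20.5% of all genes of that length.

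In the insulin and Tor pathway 3 of 14 genes (21.4%) held a shared peak, against 4.18% of all genes. Of its 3 genes of 10 kb or more, 2 held one, against 20.5% of all genes of that length. The receptor gene InR (chr3R:21570248-21619321) held 5 members of 1665 bp, all 5 wholly within Kismet, Trr and RNA Pol II peaks, and 2 Kismet-only peaks, 1 of which had 4 bp of RNA Pol II and 1 none. The gene foxo, which encodes the transcription factor that insulin signaling holds in check, held 5 members of 1403 bp, also all wholly in RNA Pol II, as were its 2 Kismet-only peaks of 10 and 69 bp. Pi3K21B, the adaptor subunit of PI3-kinase, held 1.

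Hippo signaling had 3 of 15 genes (20%) with a shared peak, against 4.18% of all genes. These were the kinases wts and Tao and the upstream regulator kibra. The single member of wts, of 335 bp, was shared through only 4 bp of Trr. JAK-STAT signaling had 2 of 10, the inhibitor Socs36E and apt, while the receptor gene dome held none. Among 14 cell cycle regulators, CycE, E2f1 and tara held shared peaks, with 1169 bp in the single member of E2f1 and 4 members in tara. Of the tara members, 2 were shared through 4 bp of a partner and 1, of 256 bp, lay wholly in RNA Pol II. At 10 kb or more, 3 of 7 Hippo, 2 of 4 JAK-STAT and 3 of 5 cell cycle genes held a member, against 20.5% of all genes of that length.

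In the ecdysone response and nuclear receptor genes 7 of 20 held a shared peak, namely EcR, Eip75B, Eip74EF, br, E23, Hnf4 and tai. These genes are long, with a list median of 36624.5 bp, and 7 of the 15 of 10 kb or more (46.7%) held a member, against 20.5% of all genes of that length. At that length the highest values were 66.7% for insulin and Tor genes (2 of 3) and 60% for cell cycle regulators (3 of 5). Wingless genes followed with 55.6% (5 of 9). Below the 20.5% were visceral muscle genes (1 of 6, 16.7%) and trithorax group genes (1 of 7, 14.3%). Enterocyte and Polycomb group genes (0 of 5 each) and the Trr complex (0 of 1) had none. The other lists with genes of that length lay between 25% and 50%.

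Counts for genes of chromatin regulators were small and lay on both sides of the 4.18% of all genes. At 10 kb or more, 1 of 3 BAP and PBAP genes and 1 of 7 trithorax group genes (14.3%) held a shared peak. None of 5 Polycomb group genes of that length did, nor the 1 Trr complex gene, against 20.5% of all genes. Of 12 BAP and PBAP subunits (8.33%), osa, which defines the BAP complex, held 2, and brm itself held 1 remaining peak of 228 bp. The gene kis held 2 members of 618 bp. It was the only gene with any on the list of 12 trithorax group genes (8.33%), which does not include osa or tara. None of 17 Polycomb group genes and none of 10 genes of the Trr complex held one.

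Of the cell type markers, 2 of 6 ISC and progenitor genes held 1 member each. These were mira, with 438 bp, and heca, a gene of 94451 bp, with 290 bp, while esg, Delta, Sox21a and spdo held no member. None of 11 enterocyte genes held one, 1 of 14 enteroendocrine genes did (ITP, with 2) and 1 of 8 visceral muscle genes did (Mef2, with 1), and against 4.18% of all genes these counts are too small to tell the cell types apart. None of 93 genes for cytoplasmic ribosomal proteins held a shared Brm peak, although 84 of them carried RNA Pol II. None of the 93 had both a Kismet and a Trr peak. These genes are short, with a median of 1318 bp, a length at which 1.28% of all genes held a member. Among 15 heat shock genes (13.3%), all under 10 kb, Hsp27 and Hsc70-3 held 1 each, against 2.07% of all genes under 10 kb. The member of Hsp27 was shared through only 4 bp of Trr.

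**Figure D5:**
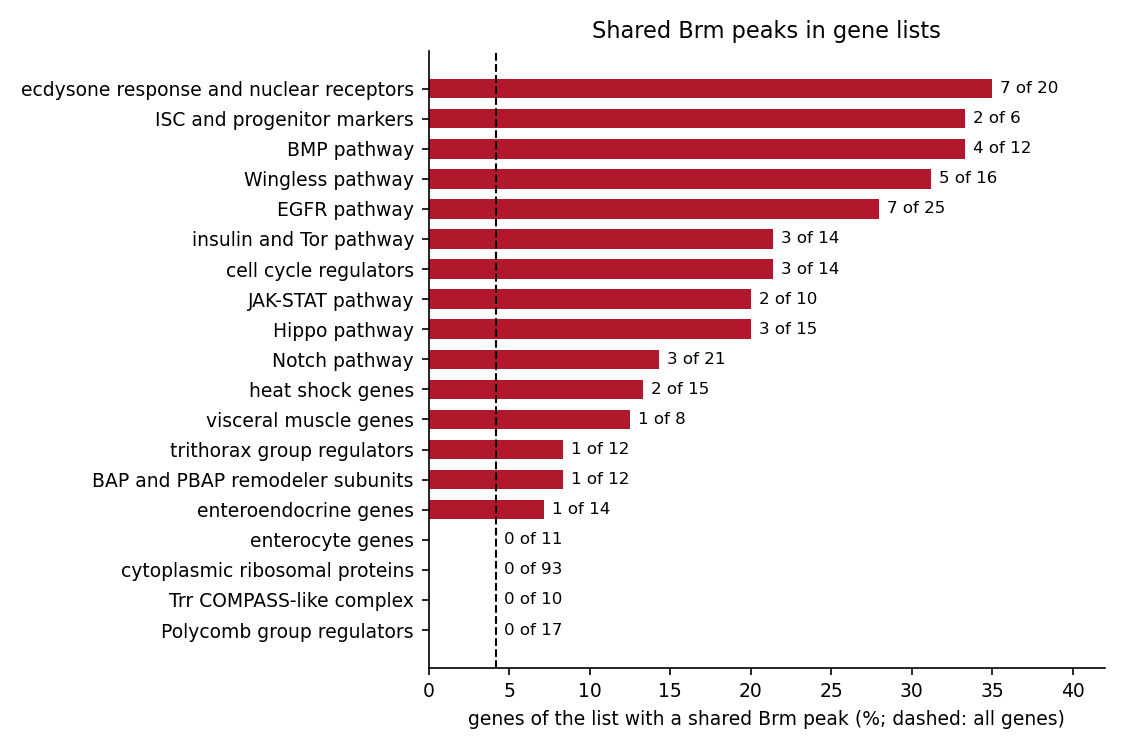
Percent of genes with at least 1 shared Brm peak (horizontal axis) in each of 19 gene lists (vertical axis), with the count beside each bar and a dashed line at 4.18%, the value over all genes. Gene length differs between the lists and is not corrected for, and enterocyte, ribosomal protein, Trr complex and Polycomb group genes have none.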

How the data were processed

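Targeted DamID-seq lists of 7 fusions were used, and 10 RNA-seq samples were not analysed here. As described by the authors, reads were mapped to release 6 with bowtie2 in damidseq_pipeline, extended to 300 nt or the first GATC, and counted per GATC site with bedtools. The authors dropped sites with a mean under 5 counts and tested fusions against Dam-only with DESeq2. At least 2 consecutive sites at adjusted p under 0.01 with a positive fold change were merged by the authors into a peak. The deposited positions are the only values, with no count, signal or score. Genes (17684, all matched to a FlyBase identifier) came from the RefSeq table of release 6, without strand or exons, and a gene held a peak when 1 bp of its body lay in it. Genomic sequence was not used here.

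Overlaps in bp were computed with Python 3.11.15, NumPy 2.4.6, pandas 2.3.3 and SciPy 1.17.1, after a check on simulated intervals. The members and gene lists were chosen with earlier results of these data known. Named genes are the 5 with the most shared peaks, the 5 with the most base pairs in them, those of the 5 longest shared and remaining peaks, and all list genes with a shared peak. Genes of the lists named for lacking one, and peaks within a named gene, were chosen after their values were seen. Alternatives changed the overlap rule, the arms, the lengths, the measure of coverage and the genes.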

Additional observations from a re-analysis of the deposited data

How the results depend on the processing

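The RNA Pol II coverage of shared minus remaining Brm peaks was positive under all 15 alternatives, between 46.2 and 53.2 percentage points, against 48.4. With at least 50% of the Brm peak in each partner, RNA Pol II covered 71.1% of shared and 24.3% of remaining base pairs, for 899 shared peaks. Without arm 2R the remaining value was 14.6%, the difference 53.2 and the genic share of shared base pairs 85.8%, and with protein-coding genes only that share was 78.7%. Counted as peaks touched, coverage was 80.8% shared and 27.5% remaining, a difference of 53.2. By construction, the longer peaks, split at the median length, gave 564 shared peaks in 486 genes, with medians of 382.5 bp shared and 304.5 bp remaining. The shorter ones gave 460 shared peaks in 364 genes, with medians of 207.5 and 200 bp. Excluding overlaps of 4 bp left 943 shared peaks and 691 genes. Of 127 values over all settings, 110 stayed within 1.5 times a count or within the 95% interval of a share or median. These bounds are rough. The interval of a base-pair share was computed as if it were a share of peaks, and the bounds on the 1024 shared peaks were wide, at 682.7 and 1536. Leaving out the longest Brm peak or those under 100 bp, chosen after seeing the data, moved none beyond these bounds. No paired analysis was possible because each list pools its samples, and for the same reason no replicate could be left out. Sequence composition and stricter peak scores were not run.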
